A study of Mus musculus with 30 samples.

Results

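The control cultures of 2 culture sets were compared: 8 control libraries of the set whose titles begin with a date-like string (called dated), against 6 control libraries of the set whose titles carry only a condition and a letter (called plain). These 14 libraries were chosen by their titles and by condition from 30 libraries in the series. All were RNA of primary dorsal root ganglion (DRG) cultures, enriched for neurons, from wild-type C57/Bl6 mice. The series tests A-Fos, a dominant negative protein that keeps AP-1 transcription factors off DNA, labelled DN and delivered by the sensory-neuron vector PHP.S, an adeno-associated virus. Each culture came from a separate mouse and was divided between DN, a GFP control and no virus. The dated controls were 4 libraries that received the GFP vector and 4 untransduced libraries, replicates 7 to 10. The plain controls were 3 libraries that received the GFP vector and 3 untransduced libraries, replicates 1 to 3. No control carried A-Fos. Both sets share genotype, tissue, extraction kit and library kit in the labels, while days in vitro, sex and age of the mice are not given for either set. Set and any batch of dissection, culture, library or sequencing coincide, so these cannot be told apart in any difference below.

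Dorsal root ganglia hold the cell bodies of sensory neurons, wrapped by satellite glia, with Schwann cells around their axons and fibroblasts, endothelial cells and macrophages between them. Nociceptors, the neurons that detect harmful stimuli, fall broadly into peptidergic cells that release neuropeptides such as CGRP and nonpeptidergic cells that depend on the growth factor receptor subunit Gfra2 and Ret. Myelinated mechanoreceptors and proprioceptors form other classes. Neurons in culture do not divide, while glia and fibroblasts can, and dissection itself starts injury, early response and cytokine programmes.

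Counted reads, in units of 1e+06, ran between 28.5 and 39.14 in dated libraries and between 24.46 and 31.13 in plain libraries. Both control libraries of a culture were summed, which gave 4 dated and 3 plain cultures, and levels below are counts scaled to 1e+06 a culture (CPM), listed in the order 7, 8, 9, 10 for dated and 1, 2, 3 for plain. Sensory neuron markers were present throughout: all 35 that the table held passed the filter on low counts. They summed to 6124 to 7629 CPM in dated cultures and 5557 to 6182 CPM in plain cultures. The 28 fibroblast markers tested summed higher, to 13230 to 16250 CPM in dated and 13340 to 16460 CPM in plain cultures, so much of the RNA was not neuronal. The Y-linked gene Eif2s3y was detected in every culture, at 25.8, 25.2, 25.7 and 24.7 CPM in dated cultures, against 30.4, 30.2 and 28.1 CPM in plain cultures. In the first principal component, which held 27.55% of the variance of log2 CPM, all 8 dated libraries lay between 15.65 and 40.35 and all 6 plain libraries between -40.51 and -32.62. The second component held 12.44% and set 1 library apart, the dated GFP library of culture 10, at -70 against -17.2 to 20.23 for the other control libraries. In that library the sensory neuron markers summed to 4758 CPM, against 6581 to 8044 CPM in the other dated libraries, and the fibroblast markers summed to 18640 CPM, against 11790 to 15180 CPM. Some results are therefore also given with culture 10 taken from its untransduced library alone.

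**Figure D1:**
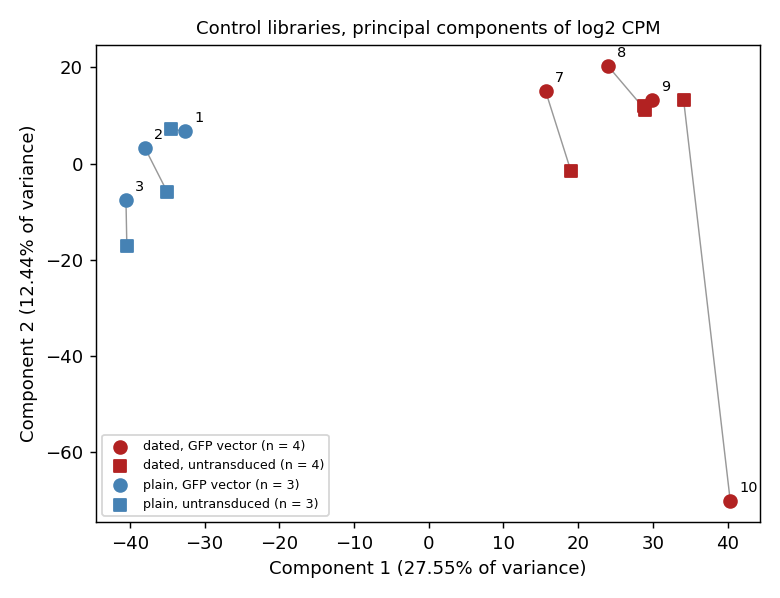
Principal components of log2 CPM over the 14 control libraries, with lines joining the libraries of a culture and numbers giving the replicate. Dated libraries lie right of 15 and plain libraries at -32.62 or lower on component 1, and the dated GFP library of culture 10 lies at -70 on component 2.

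Of 19433 genes tested, 6595 (33.9%) differed between dated and plain cultures at an adjusted p below 0.05 by edgeR's quasi-likelihood test. Dated cultures were higher for 3456 genes (17.8%) and lower for 3139 (16.2%). A change of at least 2-fold was found for 388 higher genes (2.00%) and 446 lower genes (2.30%), 4.29% in all, and the median log2 fold change over all genes tested was -0.01. Counts of every gene list below are read against these shares. Most lists hold protein-coding genes, and of 15007 protein-coding genes tested 21.3% were higher and 17.5% lower, above the shares of all genes. The 8 dated and 6 plain libraries did not overlap for 3037 genes (15.6%), of which dated libraries were higher for 1565 (8.05%) and lower for 1472 (7.57%). With culture 10 from its untransduced library alone 7212 genes were called, 6389 of them among the 6595. GFP libraries alone gave 3277 genes and untransduced libraries alone gave 5354. Whether the difference between sets depended on the vector was tested with an interaction term: edgeR called 0 of 18552 genes, with 616 at an unadjusted p below 0.05. When culture 10 was left out it called 5 genes, seen after the fact: the set difference was larger with the GFP vector for Gna14, Acpp, Scn11a and Plxnc1 and smaller for Fgf1. For Scn11a, a sodium channel of nociceptors, the interaction was then 0.61 ± 0.10 on the log2 scale (SE, adjusted p = 0.0387, edgeR).

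By the naming rule, the 10 largest rises in dated cultures were those of Igfbp2, Aldh1a1, Apln, Fat2, Adcyap1r1, Hacd4, Tinagl1, Ereg, Cav1 and Aqp4. Igfbp2, a binding protein of insulin-like growth factors at chr1:72824503-72852474 (GRCm38, as all positions here), stood at 90.0, 69.2, 94.4 and 129.9 CPM in dated cultures, against 9.78, 13.2 and 13.8 CPM in plain cultures (log2 fold change 2.97 ± 0.27 (SE), adjusted p = 4.82e-04). Aldh1a1, a retinaldehyde dehydrogenase that makes retinoic acid, at chr19:20492715-20643465, stood at 14.3, 10.6, 12.3 and 15.8 CPM in dated cultures, against 2.22, 1.80 and 2.20 CPM in plain cultures (log2 fold change 2.67 ± 0.15 (SE), adjusted p = 4.57e-08). Every dated culture was several-fold above every plain culture for both genes. Apln, the ligand apelin, was at 9.99, 10.5, 12.7 and 15.4 CPM in dated cultures, against 1.58, 2.71 and 2.32 CPM in plain cultures (log2 fold change 2.46 ± 0.20; values after ± are SE here and below). Adcyap1r1, the receptor of the neuropeptide PACAP, was at 7.74, 8.61, 12.4 and 11.4 CPM in dated cultures, against 1.67, 2.66 and 2.48 CPM in plain cultures (log2 fold change 2.15 ± 0.20). Ereg, a ligand of the epidermal growth factor receptor, was at 12.9, 13.8, 16.8 and 22.6 CPM in dated cultures, against 4.03, 4.09 and 4.77 CPM in plain cultures (log2 fold change 1.94 ± 0.20). Culture 10 was the highest dated culture for Apln and Ereg and culture 9 for Adcyap1r1, and the naming rule itself required that libraries not overlap between sets.

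Cav1, which forms caveolae of the plasma membrane, was the most abundant of the 10 largest rises, at 186, 184, 237 and 275 CPM in dated cultures, against 54.5, 53.0 and 65.5 CPM in plain cultures (log2 fold change 1.94 ± 0.17 (SE), adjusted p = 2.11e-04). Aqp4, a water channel of glia, stood at 27.4, 26.4, 27.7 and 29.9 CPM in dated cultures, against 7.21, 5.80 and 9.09 CPM in plain cultures (log2 fold change 1.92 ± 0.12). The other 3 of the 10 were the atypical cadherin Fat2 (2.27), the fatty acid elongation enzyme Hacd4 (2.04) and the matrix glycoprotein Tinagl1 (1.97). The highest culture of each set was less than 2-fold above the lowest for both genes. With culture 10 from its untransduced library alone, each of these 10 genes kept an adjusted p below 0.05.

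**Figure D2:**
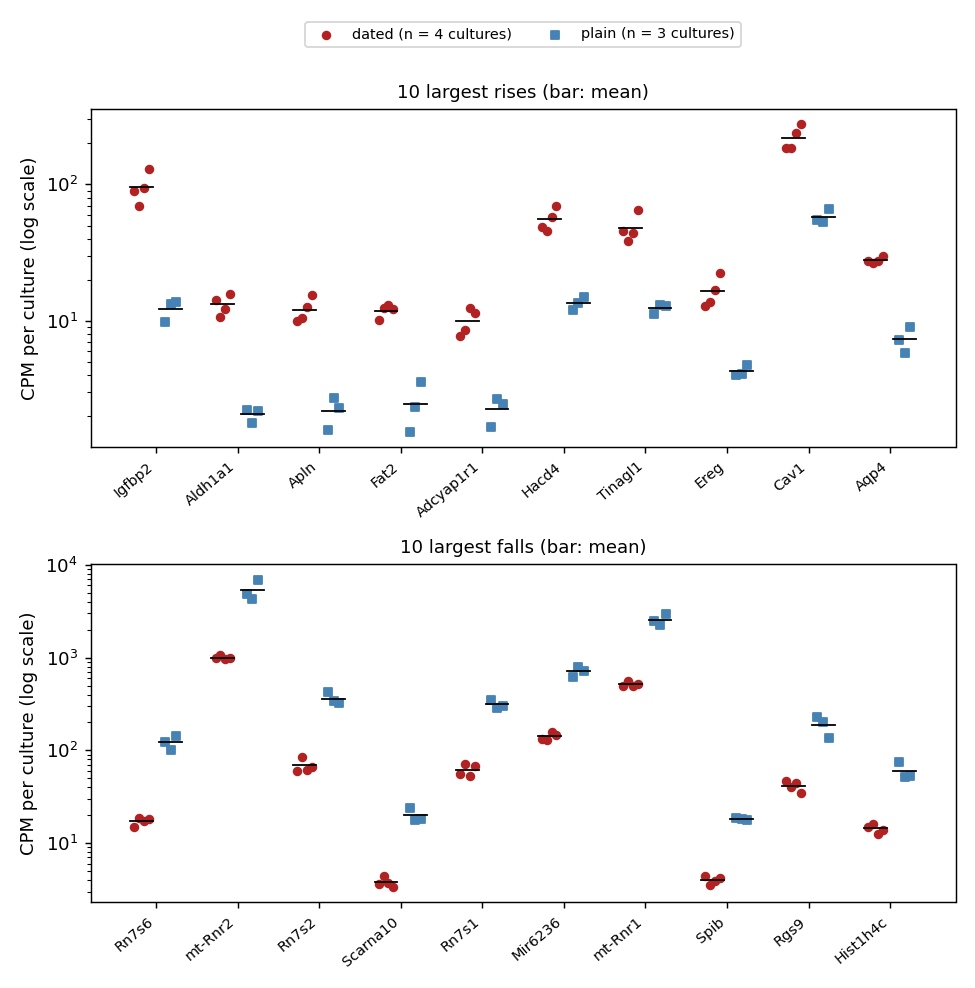
CPM per culture on a log axis for the 10 largest rises and the 10 largest falls in dated over plain control cultures, with 4 dated and 3 plain cultures as points and bars at the means. The groups of points do not overlap for any of the 20 genes, for example 69.2 to 129.9 CPM in dated and 9.78 to 13.8 CPM in plain cultures for Igfbp2.

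The largest falls were dominated by RNAs that do not encode protein. The 7S RNA genes Rn7s6, Rn7s2 and Rn7s1, both mitochondrial ribosomal RNAs, the Cajal body RNA Scarna10 and the annotated microRNA gene Mir6236 made up 7 of the 10. Rn7s6 stood at 14.9, 18.7, 17.4 and 18.2 CPM in dated cultures, against 124, 102 and 144 CPM in plain cultures (log2 fold change -2.84 ± 0.12 (SE), adjusted p = 2.61e-07). The large mitochondrial ribosomal RNA mt-Rnr2 stood at 1001, 1056, 967 and 981 CPM in dated cultures, against 4801, 4319 and 6956 CPM in plain cultures (log2 fold change -2.42 ± 0.14 (SE), adjusted p = 3.07e-06). Scarna10 stood at 3.60, 4.42, 3.69 and 3.39 CPM in dated cultures, against 23.7, 17.8 and 18.2 CPM in plain cultures (log2 fold change -2.39 ± 0.12 (SE), adjusted p = 1.41e-08). Dated cultures were tightly grouped for all 3 and several-fold below the lowest plain culture.

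Among protein-coding genes, the ETS transcription factor Spib, at chr7:44525993-44532071, was at 4.36, 3.53, 3.86 and 4.16 CPM in dated cultures, against 18.6, 18.1 and 17.7 CPM in plain cultures (log2 fold change -2.19 ± 0.09 (SE), adjusted p = 3.18e-09). Rgs9, which speeds the shutdown of G protein signals, at chr11:109225355-109298129, was at 46.6, 40.4, 43.9 and 34.5 CPM in dated cultures, against 226, 202 and 134 CPM in plain cultures (log2 fold change -2.18 ± 0.20 (SE), adjusted p = 3.85e-04), and plain culture 3 was the lowest of its set. Hist1h4c, a replication-dependent histone H4 gene, was at 14.8, 16.2, 12.6 and 13.9 CPM in dated cultures, against 75.3, 51.9 and 53.2 CPM in plain cultures (log2 fold change -2.06 ± 0.14). Reads of near-identical histone or 7S RNA copies may have been split or dropped in counting, so single members of those families are uncertain.

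The share of whole RNA classes moved with the set. The first class, genes annotated as ribosomal, transfer, small nuclear, small nucleolar, Cajal body, micro, miscellaneous or ribozyme RNA (structural RNA, mitochondrial ones included) took 1.98, 1.94, 1.97 and 1.38% in dated cultures, against 5.87, 5.93 and 5.55% in plain cultures. Mitochondrial ribosomal RNA took 0.154, 0.164, 0.147 and 0.154% in dated cultures, against 0.718, 0.642 and 0.950% in plain cultures. Mitochondrial messenger RNA took 0.277, 0.274, 0.231 and 0.263% in dated cultures, against 0.397, 0.404 and 0.508% in plain cultures. All other protein-coding genes took 90.7% to 91.56% in dated cultures and 86.03% to 86.68% in plain cultures. The sets did not overlap for any of these shares. An exact two-sided permutation test over the 7 cultures gave p = 0.0571 for each of them, the smallest p that 4 against 3 allows. Most of the structural share was 1 gene, Gm23935, annotated as a microRNA, with 16560, 16110, 16930 and 10700 CPM in dated cultures against 47790, 49910 and 43390 CPM in plain cultures (log2 fold change -1.64 ± 0.14). The share of long noncoding RNA was 4.97% to 5.35% in dated and 5.56% to 5.96% in plain cultures. Most of it was Gm42418 and Gm26917, both annotated as lincRNA, which moved apart. Gm42418 fell by 0.94 on the log2 scale and Gm26917 rose by 0.35, so the abundant genes annotated as noncoding did not move as 1 block.

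Of 169 structural RNA genes tested, 43 fell and 1 rose, with a median log2 fold change of -0.74. The RNA components of RNase P and RNase MRP were both among them: Rpph1 stood at 345, 455, 365 and 466 CPM in dated cultures, against 1494, 1110 and 1542 CPM in plain cultures (log2 fold change -1.76 ± 0.15), and Rmrp at 37.2, 45.7, 40.8 and 43.0 CPM in dated cultures, against 149.7, 119 and 244 CPM in plain cultures (log2 fold change -2.03 ± 0.26). Of 13 mitochondrially encoded messenger RNAs 10 fell and none rose, with mt-Co1 at 1982, 2009, 1719 and 1919 CPM in dated cultures, against 2898, 3103 and 3734 CPM in plain cultures (log2 fold change -0.77 ± 0.08). The nuclear-retained long noncoding RNAs Malat1 (-1.13 ± 0.16) and Neat1 (-1.17 ± 0.26) fell as well, among 8 falls and 2 rises in 13 members (5 falls without culture 3), while the imprinted Rian rose (0.49 ± 0.06). Many of these RNAs lack a poly(A) tail or stay in the nucleus. The labels name the library kit but not how RNA was selected, and the part of RNA selection or quality in these differences was not tested. When protein-coding genes alone, without mitochondrial and histone genes, formed the total, 5836 of 14948 genes were called, 3067 higher and 2769 lower. Genes with at least 2-fold then numbered 323 higher and 196 lower.

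**Figure D3:**
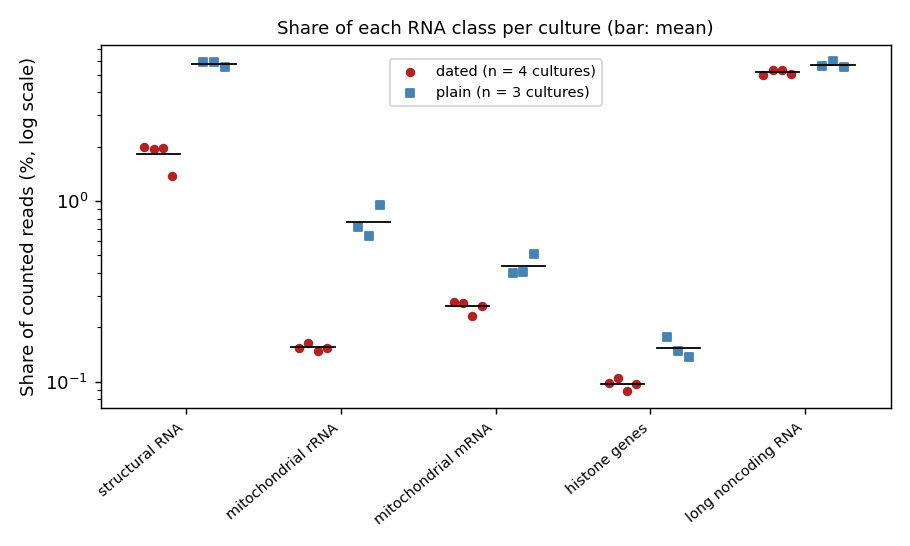
Share of counted reads taken by 5 RNA classes in each control culture, on a log axis, with 4 dated and 3 plain cultures as points and bars at the means. Every dated culture lies below every plain culture in all 5 classes, with structural RNA at 1.38% to 1.98% in dated and 5.55% to 5.93% in plain cultures. The long noncoding share is mostly Gm26917, which rose, and Gm42418, which fell.

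Sensory neuron genes were higher in dated cultures for 20 of 35 markers and lower for 1, with a list median of 0.38. Scn10a, the voltage-gated sodium channel Nav1.8 of nociceptors at chr9:119608456-119719322, stood at 328, 381, 401 and 315 CPM in dated cultures, against 160.4, 158 and 141 CPM in plain cultures (log2 fold change 1.22 ± 0.09 (SE), adjusted p = 1.21e-06). Prdm12, a transcriptional regulator needed for nociceptor development, stood at 40.8, 49.9, 53.4 and 41.0 CPM in dated cultures, against 21.8, 22.9 and 22.6 CPM in plain cultures (log2 fold change 1.05 ± 0.09 (SE), adjusted p = 5.40e-06). The RNA-binding protein gene Elavl4 stood at 136, 144, 147 and 115 CPM in dated cultures, against 78.3, 71.2 and 72.0 CPM in plain cultures (log2 fold change 0.88 ± 0.08). For these genes each dated culture was above each plain culture by a wide margin. The pan-neuronal tubulin Tubb3 rose less (0.33 ± 0.07), and the heavy neurofilament gene Nefh, a marker of large myelinated neurons, was the 1 member that fell (-0.32 ± 0.07). In these bulk cultures, fewer cells of a type and less RNA per cell cannot be told apart. With culture 10 from its untransduced library alone 26 markers rose and 3 fell, without culture 2 there were 3 falls, and in GFP libraries alone 7 rose.

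Nonpeptidergic nociceptor genes were the neuron list with the highest median, 0.96 on the log2 scale over 21 tested members, of which 17 rose and none fell. The membrane protein gene Tmem233 stood at 182, 213, 227 and 184 CPM in dated cultures, against 89.8, 83.9 and 76.2 CPM in plain cultures (log2 fold change 1.27 ± 0.09 (SE), adjusted p = 1.13e-06). Gfra2, the receptor subunit for neurturin, stood at 72.3, 75.4, 82.6 and 88.6 CPM in dated cultures, against 46.9, 47.6 and 48.6 CPM in plain cultures (log2 fold change 0.74 ± 0.07 (SE), adjusted p = 1.39e-06). No dated culture reached down to the plain range for either gene. Other rises included the kainate receptor Grik1 (1.36 ± 0.10), the itch and pain receptor Mrgprd (1.61 ± 0.24), the sodium channel Scn11a (0.99 ± 0.11) and the irritant receptor Trpa1 (0.91 ± 0.15). Mrgprd was low throughout, at 3.39, 5.82, 4.13 and 5.29 CPM in dated cultures, against 1.15, 2.08 and 1.35 CPM in plain cultures. The list had 12 to 19 rises and 0 falls under all alternatives listed under processing.

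Peptidergic nociceptor genes were mixed, with 8 of 21 higher and 3 lower. The neuropeptide genes Calca (0.70 ± 0.14) and Tac1 (0.62 ± 0.20) and the capsaicin receptor Trpv1 (0.62 ± 0.10) rose, with Trpv1 at 51.6, 60.8, 66.2 and 52.0 CPM in dated cultures, against 40.7, 39.1 and 32.4 CPM in plain cultures. The receptor tyrosine kinase gene Kit fell, with 53.0, 57.1, 49.8 and 48.2 CPM in dated cultures, against 93.2, 89.1 and 99.1 CPM in plain cultures (log2 fold change -0.85 ± 0.06 (SE), adjusted p = 2.21e-07). The cold receptor Trpm8 (-0.66) and the synaptic organiser Cbln2 (-0.49) also fell. In GFP libraries alone only 2 members of this list rose, and 1 member fell without culture 1 or without culture 7.

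Mechanoreceptor and proprioceptor genes went the other way more often, with 5 of 32 higher and 10 lower and a median of -0.10. Slc17a7, the vesicular glutamate transporter VGLUT1 used by large-diameter neurons, stood at 13.3, 16.3, 15.1 and 13.7 CPM in dated cultures, against 31.5, 27.2 and 24.4 CPM in plain cultures (log2 fold change -0.92 ± 0.09 (SE), adjusted p = 5.23e-06). Ntrk3, the neurotrophin-3 receptor of proprioceptors (-0.53 ± 0.13), and the potassium channel Kcna1 (-0.63 ± 0.08) also fell. Fam19a4, a marker of unmyelinated low-threshold mechanoreceptors, stood at 24.7, 26.9, 23.9 and 19.3 CPM in dated cultures, against 11.1, 10.7 and 9.40 CPM in plain cultures (log2 fold change 1.18 ± 0.11 (SE), adjusted p = 2.61e-06). The transcription factor Maf rose as well (0.40 ± 0.05). The list thus held genes that rose and genes that fell in the same cultures.

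Ion channel genes moved in both directions. Among 14 voltage-gated sodium channel genes 6 rose and 3 fell. Scn9a, which encodes Nav1.7, stood at 213, 221, 239 and 184 CPM in dated cultures, against 146, 144 and 147 CPM in plain cultures (log2 fold change 0.56 ± 0.07), and had a log2 fold change of 0.55 in GFP libraries alone, where it did not pass the threshold (adjusted p = 0.0967, edgeR). Scn4b, an auxiliary subunit, stood at 126, 119, 122 and 99.8 CPM in dated cultures, against 208, 212 and 205 CPM in plain cultures (log2 fold change -0.84 ± 0.07 (SE), adjusted p = 7.70e-07), and Scn8a, Nav1.6 of nodes of Ranvier, fell too (-0.40 ± 0.09). Scn4b and Scn8a thus moved opposite to Scn9a, Scn10a and Scn11a. Of 35 potassium channel genes 11 rose and 6 fell. Without culture 2 or without culture 9 7 rose, and in GFP libraries alone 4 did. The modulators Kcnip4 (0.99 ± 0.07) and Kcnip1 (0.85 ± 0.10) rose.

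**Figure D4:**
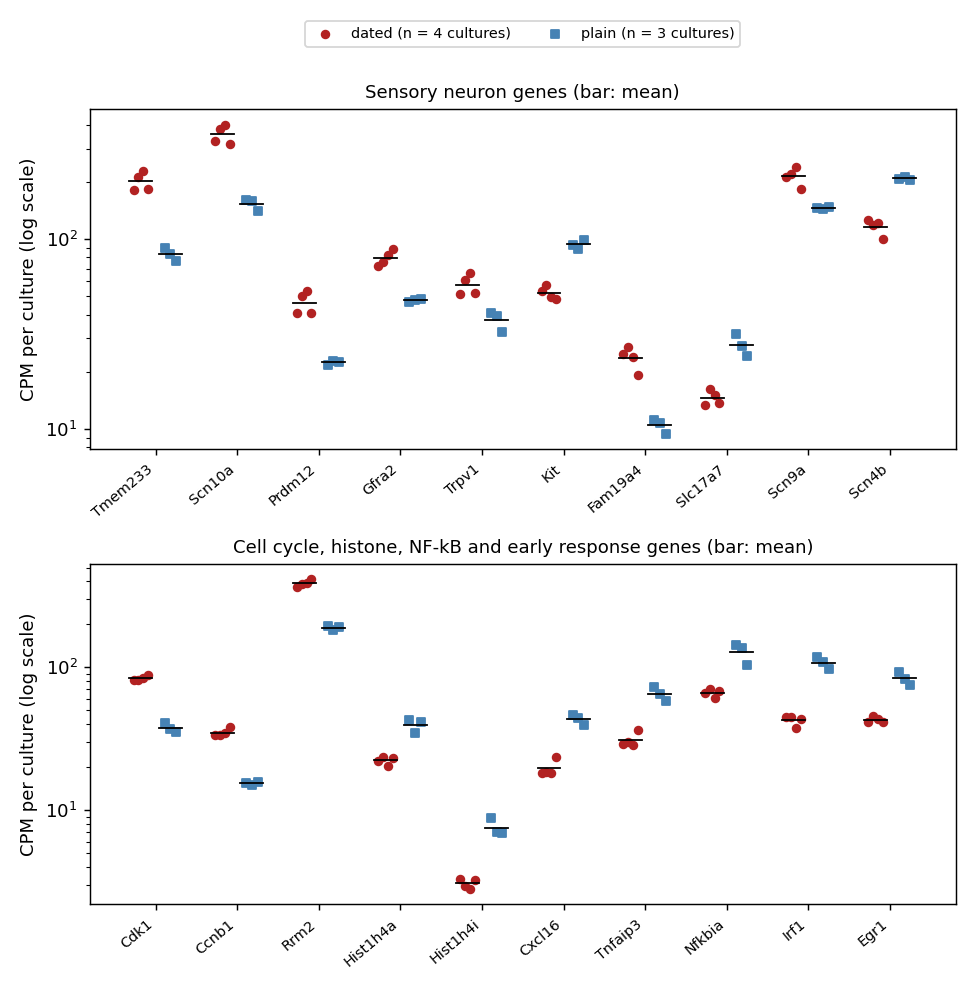
CPM per culture on a log axis for 10 sensory neuron genes and for 10 cell cycle, histone, NF-kB and early response genes, with 4 dated and 3 plain cultures as points and bars at the means. Scn10a lies at 315 to 401 CPM in dated and 141 to 160.4 CPM in plain cultures, while Kit, Slc17a7 and Scn4b lie lower in dated cultures.

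Axon growth and cytoskeleton genes rose in 17 of 41 cases and fell in 6. GFP libraries alone gave 10 rises, and culture 10 from its untransduced library alone gave 23. The alpha tubulin Tuba1b stood at 452, 462, 480.5 and 478 CPM in dated cultures, against 287, 276 and 289.6 CPM in plain cultures (log2 fold change 0.72 ± 0.05 (SE), adjusted p = 1.22e-07), and its near copy Tuba1c at 83.9, 89.4, 96.5 and 95.9 CPM in dated cultures, against 54.3, 48.7 and 52.5 CPM in plain cultures (log2 fold change 0.82 ± 0.06). Tubb6, a beta tubulin, rose (0.68 ± 0.05). Of 43 nerve injury genes 11 rose (25.6%) and 9 fell (20.9%), near the 21.3% and 17.5% of protein-coding genes, with a median of 0.00. The growth factor gene Bdnf rose, at 38.0, 37.2, 43.0 and 37.7 CPM in dated cultures, against 24.9, 21.98 and 26.0 CPM in plain cultures, while the injury receptor Tnfrsf12a fell (-0.42 ± 0.05). The injury-induced transcription factor Atf3 was at 114, 112, 90.8 and 71.0 CPM in dated cultures, against 171, 137 and 126 CPM in plain cultures, which did not pass the test (adjusted p = 0.0697, edgeR). Without culture 2 or without culture 7 the injury list had 7 rises, and in GFP libraries alone it had 3.

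Cell cycle genes were higher in dated cultures as a group, with 27 of 35 risen, none fallen and a median of 0.63. Cdk1, the kinase that drives entry into mitosis, at chr10:69335146-69352938, stood at 82.1, 81.0, 84.8 and 88.3 CPM in dated cultures, against 40.5, 36.9 and 35.0 CPM in plain cultures (log2 fold change 1.17 ± 0.06 (SE), adjusted p = 1.23e-08). Ccnb1, its partner cyclin B1, at chr13:100778650-100786570, stood at 33.4, 33.5, 34.6 and 38.1 CPM in dated cultures, against 15.5, 14.9 and 15.8 CPM in plain cultures (log2 fold change 1.18 ± 0.07 (SE), adjusted p = 3.40e-08). Rrm2, the ribonucleotide reductase subunit that supplies deoxynucleotides, at chr12:24708241-24714146, stood at 364, 382, 392 and 413 CPM in dated cultures, against 195, 182 and 192 CPM in plain cultures (log2 fold change 1.03 ± 0.05 (SE), adjusted p = 1.77e-08). The groups did not overlap for any of the 3, and the spread within a set was small beside the gap. The mitotic kinase Plk1 (1.22 ± 0.09) and the ubiquitin-conjugating enzyme Ube2c (1.23 ± 0.09) also rose. The proliferation marker Mki67 was at 256, 253, 253 and 239.6 CPM in dated cultures, against 254, 225 and 239.8 CPM in plain cultures and did not pass the test (adjusted p = 0.366), nor did the replication helicase subunit Mcm2 (log2 fold change -0.01 ± 0.05, adjusted p = 0.928, edgeR). The list had 25 to 27 rises under all alternatives. Beside it, fibroblast markers summed to 13230 to 16250 CPM in dated and 13340 to 16460 CPM in plain cultures, and the part of dividing cell types in the difference was not tested.

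Promoters of G2 and mitosis genes commonly hold CCAAT boxes, bound by NF-Y, and a cell cycle homology region. The 300-base windows around the start sites of the 3 cell cycle genes named by rule are shown because the genes moved together. They are RefSeq sequence of GRCm38.p6, 250 bases before to 50 bases after the start, 5′ to 3′ on the strand of the gene. Capitals mark CCAAT or its reverse complement ATTGG, and TTTGAA or its reverse complement TTCAAA.
Cdk1 (chr10:69352863-69353162, minus strand): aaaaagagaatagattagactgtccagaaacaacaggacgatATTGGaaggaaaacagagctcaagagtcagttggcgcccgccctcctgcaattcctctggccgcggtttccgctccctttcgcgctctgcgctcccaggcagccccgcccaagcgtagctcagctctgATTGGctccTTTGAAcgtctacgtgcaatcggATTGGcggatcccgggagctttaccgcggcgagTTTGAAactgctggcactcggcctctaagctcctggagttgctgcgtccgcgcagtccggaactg
Ccnb1 (chr13:100786437-100786736, minus strand): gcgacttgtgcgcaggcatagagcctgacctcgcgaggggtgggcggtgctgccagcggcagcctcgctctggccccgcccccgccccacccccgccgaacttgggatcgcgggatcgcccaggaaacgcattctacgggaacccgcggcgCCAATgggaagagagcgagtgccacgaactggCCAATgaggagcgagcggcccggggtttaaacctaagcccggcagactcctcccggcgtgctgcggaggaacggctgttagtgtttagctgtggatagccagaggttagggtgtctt
Rrm2 (chr12:24708004-24708303, plus strand): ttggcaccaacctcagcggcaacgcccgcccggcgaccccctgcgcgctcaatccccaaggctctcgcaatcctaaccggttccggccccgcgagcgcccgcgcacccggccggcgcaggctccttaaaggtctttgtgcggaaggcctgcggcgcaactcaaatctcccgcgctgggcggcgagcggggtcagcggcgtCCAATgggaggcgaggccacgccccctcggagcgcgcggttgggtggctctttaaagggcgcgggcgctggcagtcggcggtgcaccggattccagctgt
CCAAT was found on either strand in all 3 windows and TTTGAA only in that of Cdk1. Of the 27 risen members 23 had a window, 21 of them with CCAAT and 14 with TTTGAA, and of the 8 members not called 6 had a window, 5 with CCAAT and 2 with TTTGAA. Over all 32851 windows the shares were 37.4% and 17.9%, counted per window, while a member counted when any of its windows matched. The list was made of cell cycle genes, so no excess is read from these counts. A match describes letters and not a bound site.

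Replication-dependent histone genes moved opposite to the cell cycle list. Of 29 tested 23 fell and 1, Hist1h2bk, rose, with a median of -0.69. Hist1h4a stood at 22.1, 23.4, 20.4 and 23.0 CPM in dated cultures, against 42.7, 34.5 and 41.7 CPM in plain cultures (log2 fold change -0.83 ± 0.08 (SE), adjusted p = 2.03e-06), and Hist1h4i at 3.27, 2.94, 2.81 and 3.25 CPM in dated cultures, against 8.76, 6.97 and 6.91 CPM in plain cultures (log2 fold change -1.30 ± 0.13). Histone genes together took 0.0989, 0.105, 0.0882 and 0.0974% in dated cultures, against 0.176, 0.148 and 0.137% in plain cultures. Their messenger RNAs end in a stem-loop in place of a poly(A) tail, and the part of RNA selection was again not tested.

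Cytokine and NF-kB genes were lower in dated cultures, with 16 of 22 fallen, 1 risen and a median of -0.67. Cxcl16, a chemokine, stood at 18.2, 18.5, 18.3 and 23.5 CPM in dated cultures, against 46.4, 44.5 and 39.6 CPM in plain cultures (log2 fold change -1.15 ± 0.09 (SE), adjusted p = 1.15e-06). Lif, a cytokine of the injury response, stood at 239, 244, 274 and 287 CPM in dated cultures, against 407, 462 and 457 CPM in plain cultures (log2 fold change -0.76 ± 0.07 (SE), adjusted p = 2.53e-06). Tnfaip3, a feedback inhibitor of NF-kB, stood at 28.9, 30.1, 28.7 and 36.2 CPM in dated cultures, against 72.3, 64.6 and 58.1 CPM in plain cultures (log2 fold change -1.07 ± 0.09 (SE), adjusted p = 4.90e-06). All dated cultures were below all plain cultures, and for Cxcl16, Lif and Tnfaip3 culture 10 was the highest dated culture. The monocyte attractant Ccl2 was at 22.2, 22.04, 16.9 and 25.3 CPM in dated cultures, against 79.2, 65.6 and 64.4 CPM in plain cultures (log2 fold change -1.69 ± 0.12), and the NF-kB subunit Relb also fell (-1.09 ± 0.11). The only rise was the chemokine Cxcl12 (1.08 ± 0.14), and 3 members rose without culture 3. Macrophage markers, from cells that also make cytokines, summed to 34.26 to 74.46 CPM in dated and 54.23 to 89.72 CPM in plain cultures. Of 20 of them 3 fell and 1 rose, and their median log2 fold change was -0.44. The falls were 1 without culture 2, 6 without culture 7 and 6 of 16 tested in untransduced libraries alone, and the median ran between -0.70 and -0.10 when 1 culture was left out. Their part in the cytokine difference was not tested.

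Nfkbia, the inhibitor that NF-kB itself induces, stood at 66.0, 70.8, 60.9 and 68.4 CPM in dated cultures, against 144, 136 and 104 CPM in plain cultures (log2 fold change -0.94 ± 0.10 (SE), adjusted p = 7.65e-05). Its promoter window is shown because it is a feedback target with a known NF-kB site, with GGANNTTCC, the core of an NF-kB motif, or its reverse complement GGAANNTCC in capitals.
Nfkbia (chr12:55492598-55492897, minus strand): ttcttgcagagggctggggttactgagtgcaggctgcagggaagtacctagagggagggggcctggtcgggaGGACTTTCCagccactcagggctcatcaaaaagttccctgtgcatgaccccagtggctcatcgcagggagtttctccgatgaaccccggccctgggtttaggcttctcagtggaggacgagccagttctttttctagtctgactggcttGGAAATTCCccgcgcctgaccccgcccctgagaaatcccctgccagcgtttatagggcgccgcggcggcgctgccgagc
The match nearer the start met the motif on both strands, as overlapping matches. A longer form, the core with a further G before it on its own strand, was searched first and was in 1.47% of all 32851 windows, in 6 of the 11 fallen members with a window, in 0 of 3 members not called and in 0 of the 1 member that rose. The core alone was taken up after those counts were seen, for a reason of format and not of biology, and matched more widely: it was in 4.26% of all windows, in 9 of the 11 fallen members, in 0 of 3 and in 0 of 1. Neither count was planned, and both are descriptions of letters. A member counted when any of its windows matched, while the shares over all windows are per window. The list was made of NF-kB and cytokine genes, so no excess is read from these counts.

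Immediate early genes fell in 13 of 34 cases and rose in 4, with 2 rises without culture 3. In GFP libraries alone 7 fell and 2 rose. Egr1, a transcription factor induced within minutes of stimulation, stood at 41.2, 45.9, 43.2 and 41.2 CPM in dated cultures, against 92.9, 82.4 and 75.7 CPM in plain cultures (log2 fold change -0.96 ± 0.07 (SE), adjusted p = 1.94e-07). Ier3 (-0.66 ± 0.06) and the RNA-decay factor Zfp36 (-0.86 ± 0.10) fell too, while Maff rose (0.67 ± 0.07). The AP-1 genes, whose proteins A-Fos inhibits, fell slightly or not past the threshold: Jun was at 272, 284, 269.9 and 263 CPM in dated cultures, against 342, 328 and 307 CPM in plain cultures (log2 fold change -0.26 ± 0.05) and Fos at 34.4, 39.5, 32.8 and 34.8 CPM in dated cultures, against 42.3, 42.4 and 44.5 CPM in plain cultures (log2 fold change -0.28 ± 0.06). Junb (-0.35 ± 0.09) and Fosl1 (-0.23 ± 0.07) also fell. Fosl2, Jund and Fosb had adjusted p values of 0.0904, 0.0501 and 0.249 by edgeR. Among these 7 genes the log2 fold change farthest from 0 was -0.35, in Junb.

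Interferon genes fell in 12 of 38 cases and rose in 3, led by the transcription factor Irf1, at 44.8, 44.6, 37.8 and 43.2 CPM in dated cultures, against 118, 109 and 96.8 CPM in plain cultures (log2 fold change -1.34 ± 0.07 (SE), adjusted p = 6.07e-08). Gbp2, a guanylate-binding protein, fell (-0.68 ± 0.07). Without culture 1 only 5 of the list fell, and without culture 9 7 did, while Irf1 kept its call in both, and 1 rose without culture 2. In GFP libraries alone 5 fell.

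Metabolic and stress lists held genes that rose and genes that fell. Of 30 cholesterol genes 16 fell and 4 rose: Insig1, the sterol-regulated anchor of SREBP, stood at 95.1, 97.1, 91.9 and 96.0 CPM in dated cultures, against 147, 146 and 141 CPM in plain cultures (log2 fold change -0.61 ± 0.04 (SE), adjusted p = 2.21e-07), and Mvd of the mevalonate pathway fell (-0.67 ± 0.06). Of 44 cytosolic ribosomal protein genes 15 fell and 4 rose (2 rose without culture 2, 3, 8 or 10). In GFP libraries alone 9 of them fell and 1 rose. Rps24 stood at 48.7, 46.9, 47.0 and 52.4 CPM in dated cultures, against 86.0, 70.9 and 78.6 CPM in plain cultures (log2 fold change -0.69 ± 0.06). Of 25 NRF2 targets and metallothioneins 10 fell and 8 rose. The NRF2 target Osgin1 fell (-0.90 ± 0.06) and the NRF2 target Nqo1 rose (0.83 ± 0.11), so the list had no 1 direction. Of 38 integrated stress and unfolded protein response genes 8 fell (21.1%) and 5 rose (13.2%), against 17.5% and 21.3% of protein-coding genes. The share called in this list (34.2%) was near the 33.9% of all genes. The rises were 3 without culture 7 or culture 9 and the falls 5 without culture 2 or culture 9. GFP libraries alone gave 3 rises and 4 falls. The cystine transporter Slc7a11 was at 22.1, 21.5, 20.6 and 20.6 CPM in dated cultures, against 59.5, 45.5 and 43.3 CPM in plain cultures (log2 fold change -1.22 ± 0.09 (SE), adjusted p = 1.73e-06), and the serine synthesis enzymes Phgdh (0.64 ± 0.05) and Psat1 (0.50 ± 0.05) rose. Of 18 heat shock genes 3 rose and 2 fell, with a median of 0.05, and the share called (27.8%) was below the 33.9% of all genes. Among the falls, the small heat shock protein gene Cryab was at 518, 469, 487 and 569.6 CPM in dated cultures, against 930.1, 859.8 and 1084 CPM in plain cultures (log2 fold change -0.91 ± 0.08).

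**Figure D5:**
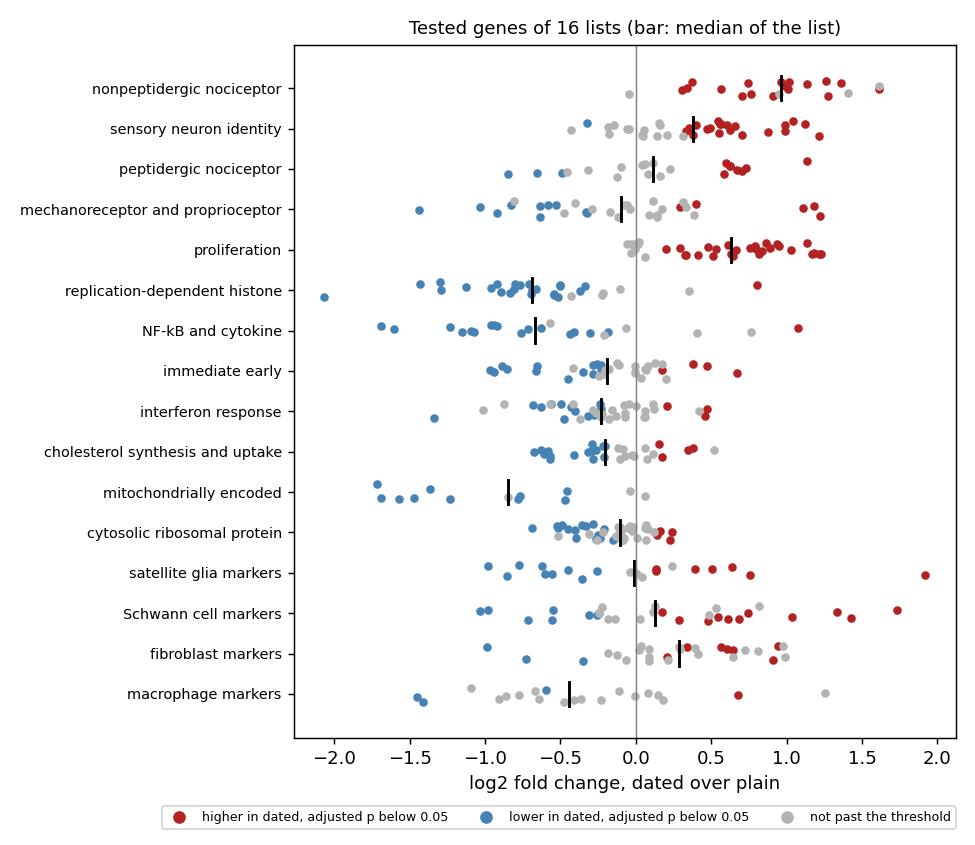
Log2 fold change of dated over plain control cultures for the tested genes of 16 lists, 1 point a gene, coloured by direction where the adjusted p is below 0.05, with a bar at each list's median. Nonpeptidergic nociceptor genes (median 0.96) and cell cycle genes (0.63) lie right of 0, and histone (-0.69) and NF-kB genes (-0.67) lie left of it.

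Glial markers moved in both directions. Of 29 Schwann cell genes 11 rose and 8 fell. Myelin-related genes were found in both directions. Prx, which encodes periaxin, stood at 184, 164, 187 and 195 CPM in dated cultures, against 48.3, 51.1 and 65.7 CPM in plain cultures (log2 fold change 1.73 ± 0.11 (SE), adjusted p = 1.80e-06), and Cnp at 125, 126, 117 and 120.2 CPM in dated cultures, against 71.5, 73.9 and 73.1 CPM in plain cultures (log2 fold change 0.74 ± 0.05). The lineage factor Sox10 stood at 208, 215, 210.0 and 219 CPM in dated cultures, against 304, 302 and 327 CPM in plain cultures (log2 fold change -0.55 ± 0.05 (SE), adjusted p = 1.09e-06), and the neuregulin receptor Erbb3 (-0.55 ± 0.05) and S100b (-0.71 ± 0.05) fell. Prx and Cnp were thus higher and Sox10, Erbb3 and S100b lower in the same cultures, and the myelin gene Pllp (-0.98 ± 0.16) fell, with a summed list level of 4710 to 5038 CPM in dated and 3926 to 4565 CPM in plain cultures. Satellite glia genes were split as well, with 7 of 21 risen and 9 fallen. Aqp4 rose, whereas the potassium channel Kcnj10, which clears potassium around neurons, was at 59.3, 54.5, 54.0 and 49.4 CPM in dated cultures, against 91.0, 102 and 128 CPM in plain cultures (log2 fold change -0.98 ± 0.11 (SE), adjusted p = 9.11e-05) and the adhesion gene Cdh19 at 125, 124, 105 and 116 CPM in dated cultures, against 206, 194 and 204 CPM in plain cultures (log2 fold change -0.78 ± 0.06). Without culture 1, 2 or 9 the satellite list had 4 rises, and in GFP libraries alone it had 3.

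Matrix genes were lower more often, with 14 of 40 fallen and 7 risen. The secreted protease Adamts1 stood at 156, 144, 151 and 174 CPM in dated cultures, against 320.5, 341 and 346 CPM in plain cultures (log2 fold change -1.10 ± 0.06 (SE), adjusted p = 2.74e-08) and the gelatinase Mmp2 at 112, 102, 101 and 116 CPM in dated cultures, against 214, 218 and 243 CPM in plain cultures (log2 fold change -1.06 ± 0.06 (SE), adjusted p = 4.57e-08). Mmp14, which activates Mmp2, fell (-0.71 ± 0.05), and the protease inhibitor Timp1 rose (0.78 ± 0.15). Of 28 fibroblast markers 7 rose and 3 fell, with the matrix protein Postn at 912, 941, 840.0 and 883 CPM in dated cultures, against 1485, 1395 and 1555 CPM in plain cultures (log2 fold change -0.73 ± 0.06 (SE), adjusted p = 5.36e-07). Without culture 1 only 3 fibroblast markers rose, 4 without culture 2 or culture 7, and 2 in GFP libraries alone. Endothelial genes were low, summing to 41.8 to 61.25 CPM in dated and 33.58 to 42.35 CPM in plain cultures, with 6 of 17 risen, 3 without culture 7 and 0 in GFP libraries alone. Of 12 pericyte genes 3 rose and 1 fell. None of the 3 tested lymphoid and neutrophil genes and not the 1 tested erythroid gene was called, with summed levels up to 0.926 and 0.573 CPM in dated and up to 1.45 and 0.539 CPM in plain cultures.

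The 20 genes with the largest changes were also read in the libraries outside the comparison, as values only. In the DN libraries of the same cultures, 4 dated and 3 plain, all 20 genes differed in the same direction without overlap. Dated and plain DN libraries did not overlap for 27.9% of all genes tested, and for 66.6% of the 3037 genes whose control libraries did not overlap they did so in the same direction. Groups of fewer libraries overlap less often. The 27.9% (4 against 3 libraries) is therefore not comparable with the 15.6% of the controls (8 against 6). The 20 genes were chosen for large changes without overlap in the controls, so nothing is read from their count. These libraries share their cultures with the controls and add no independent cultures. In the 6 control libraries of the set labelled with 7 days in vitro, the median lay between the dated and plain medians for 14 of the 20 genes, nearer dated for 10 and nearer plain for 4. It lay beyond the dated median for 5 and beyond the plain median for 1. Rn7s6 had a median of 10.8 CPM in that set, against medians of 16.8 CPM in dated and 120.4 CPM in plain control libraries. Aqp4 had a median of 6.43 CPM there, against 28.1 CPM in dated and 7.12 CPM in plain libraries. These library values were scaled over all 30 libraries and are not on the culture scale used above.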

How the data were processed

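RNA was extracted with an RNeasy Micro kit and made into TruSeq libraries, per the labels' protocols. The deposited gene table holds whole-number read counts per Ensembl gene with no normalization. Reads were demultiplexed with bcl2fastq 2.17, aligned with STAR and counted with HTSeq on GRCm38 (mm10), per the submitters' processing notes, taking each tool in its usual role. Settings, strandedness and the authors' annotation are not stated there. Without known strandedness, reads of overlapping and antisense genes cannot be told apart. The deposited repeat count table was not used. GENCODE M21 gave symbols for 48435 of 48795 identifiers.

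The GFP and untransduced counts of each replicate number were summed, since the series design states that each mouse's culture was divided between conditions. This balances the vector within every culture. The pairing was checked: deviations of same-number libraries from their group means correlated at -0.043 to 0.089 (0 of 7 above 0.1, genes not being independent replicates), so the pairing rests on the design. Genes passing filterByExpr were scaled by TMM and tested with edgeR 4.0.16 (robust quasi-likelihood F test, 4 dated against 3 plain cultures, Benjamini-Hochberg over 19433 genes) in R 4.3.3 with limma 3.58.1 and DESeq2 1.42.0 for alternatives. Standard errors are log2 fold changes over √F. Interaction of set and vector was tested over 14 libraries with culture as a block. Components used log2 CPM with prior count 2. In the main fit, p-values set the difference between sets against the spread between cultures within sets. Those of the interaction set it against the spread between cultures of the GFP minus untransduced difference. On simulated counts for 19143 genes, 67 genes were changed by log2 0.585, 67 by log2 1 and 66 by log2 2. Of these 73.1%, 89.6% and 100% were recovered, with 13 false calls. Far fewer genes were changed there than were called in the data, so these values do not carry over to the calls above.

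Genes named were the 10 largest rises and falls past the threshold whose library mean reached 2 log2 CPM, with no Gm, Rik or accession-like symbol and no overlap between libraries, and up to 3 smallest p per list; other list members named were chosen after their values were seen. Some genes that the rule or the lists name are not reported here. Members and lists were chosen with earlier results of these data known. Alternatives were no block, a random block, each vector alone, median-ratio and upper-quartile scaling, DESeq2, no low-count filter and each culture left out; 2 more, protein-coding genes alone and culture 10 from its untransduced library alone, were chosen after seeing the data. Sequences are from RefSeq (GRCm38.p6). Motifs were searched on both strands; 2 forms of the NF-kB motif were searched, the shorter after the counts of the longer were seen, and both are given.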

Additional observations from a re-analysis of the deposited data

Results flagged for a closer look

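Of 136 values checked over the 4 dated cultures, 4 had 1 culture far from the other 3. Chance flags about 1 in 20 such groups. The structural RNA share of culture 10 was 1.38%, against 1.94% to 1.98% in the other dated cultures. Cxcl16 was at 23.5 CPM in culture 10, against 18.2 to 18.5 CPM in the others. Tek, an endothelial receptor, was at 2.14 CPM in culture 10, against 1.44 to 1.56 CPM in the others. Bdnf was at 43.0 CPM in culture 9, against 37.2 to 38.0 CPM in the others.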

How the results depend on the processing

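The count of 6595 genes was 6537 to 7212 under median-ratio and upper-quartile scaling, DESeq2, no low-count filter and culture 10 from its untransduced library alone, and 5242 to 6370 when 1 culture was left out. Without the replicate block (14 libraries, vector as covariate) it was 7159, with 823 of at least 2-fold, and with the block as a random effect 6764, with 833. GFP libraries alone, 1 a culture, gave 3277 genes and 498 of at least 2-fold. Untransduced libraries alone, also 1 a culture, gave 5354 and 669. The part of the culture 10 GFP library in the lower GFP count was not tested. Protein-coding genes alone gave 519 of at least 2-fold, with 14948 genes tested, and leaving out 1 culture gave 695 to 933. Of the 6595 genes, 5 changed sign in untransduced libraries alone and 0 under each other alternative. The interaction count of 0 was 19 without the low-count filter and 0 to 5 when 1 culture was left out (5 without culture 10); the cause was not tested. Rises or falls moved by over 1.5 times, with the larger count at least 3, in 27 of 42 lists in GFP libraries alone. They did so in 12 lists in untransduced libraries alone and in 2 to 13 when 1 culture was left out. With culture 10 from its untransduced library alone they did so in 4 lists. None of 129 named genes changed sign; most calls lost were of Eif2s3x, Kdm5d and Ptprc. Set coincides with batch, and 3 plain cultures limit every exact permutation test of a share to p = 0.0571 or above.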

Other observations

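Some genes of the circadian clock, p53 and neurodegeneration-linked lists also differed. Of 22 circadian clock genes 5 fell (22.7%) and 4 rose (18.2%) in dated cultures, near the 16.2% and 17.8% of all genes tested. Arntl, the activator BMAL1, was at 36.6, 36.6, 37.7 and 41.0 CPM in dated cultures, against 64.4, 68.6 and 61.1 CPM in plain cultures (log2 fold change -0.77 ± 0.06 (SE), adjusted p = 3.01e-07), and Nr1d1, a repressor that BMAL1 induces, at 60.8, 60.1, 59.1 and 66.5 CPM in dated cultures, against 106, 98.2 and 110.3 CPM in plain cultures (log2 fold change -0.77 ± 0.06 (SE), adjusted p = 2.29e-07). The period gene Per1 fell (-0.65 ± 0.08) and Per2 rose (0.31 ± 0.10). Without culture 1 no clock gene was called higher, and 1 to 2 were without culture 2, 9 or 10. Of 28 p53 targets 10 fell and 6 rose, with Mdm2 (-0.45 ± 0.06) lower and Ccng1 (0.45 ± 0.05) higher. Falls in this list were 6 without culture 1 and 4 in GFP libraries alone, where 3 rose. Of 16 neurodegeneration-linked genes 7 fell and none rose, among them the autophagy receptors Sqstm1, at 725, 750.1, 705 and 701 CPM in dated cultures, against 1242, 1144 and 1066 CPM in plain cultures (log2 fold change -0.68 ± 0.06 (SE), adjusted p = 1.08e-06), and Optn (-0.57 ± 0.05).

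Of 32 Hox genes, which mark position along the body axis, 6 rose and 2 fell. Without culture 7 3 rose, and in GFP libraries alone 1 did. Of 25 genes of neurotrophic factor signalling 10 rose and 3 fell. Without culture 2 6 rose, and in GFP libraries alone 3 did. Of 23 TGF-beta and YAP genes 8 rose and 4 fell, with Tgfb1 itself lower (-0.70 ± 0.06). Of 37 synaptic vesicle and granule genes 8 rose and 8 fell (21.6% each), near the 21.3% and 17.5% of protein-coding genes. This list had 4 rises without culture 2 or culture 3 and 13 without culture 10. GFP libraries alone gave 3 rises, and culture 10 from its untransduced library alone gave 14. Of 34 hypoxia and glycolysis genes 10 fell and 6 rose. Of 36 nuclear genes of oxidative phosphorylation 8 fell (22.2%) and 4 rose (11.1%), against 17.5% and 21.3% of protein-coding genes. The oxidative phosphorylation list was called at 33.3%, near the 33.9% of all genes, with 5 falls without culture 9 and 2 rises without culture 2. In GFP libraries alone 6 of its genes fell and none rose. Fibroblast (35.7%), endothelial (35.3%) and pericyte (33.3%) markers were also called at shares near 33.9%, and Hox genes (25.0%) and macrophage markers (20.0%) at lower shares. By direction, 35.3% of endothelial markers rose and none fell. For fibroblast markers 25.0% rose and 10.7% fell, and for pericyte markers 25.0% and 8.33%, against 21.3% and 17.5% of protein-coding genes.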
